A study of Rattus norvegicus with 42 samples.

Results

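The lungs described here came from 12 male Fischer rats of the F344/DuCrl strain kept on a high-fat diet, 6 that had inhaled crystalline silica and 6 that had breathed air, sampled 9 months after the exposure. They are 12 of the 42 rats of the series, chosen by their labels alone. The silica rats breathed 15 mg/m3 of crystalline silica by whole-body inhalation for 6 hours a day on 5 days. Both groups ate a diet that draws 60% of energy from fat, which started before the exposure and continued to the end, so every value below is a silica effect within that diet. Beside them stand 5 silica and 6 air rats at 9 months on a regular diet that draws 18% of energy from fat, and 5 silica and 5 air rats on the high-fat diet at 3 months. The fit that compares the times also held 5 silica and 4 air rats on the regular diet at 3 months. The rats were bought at 3 months of age, so the 9-month groups are also older than the 3-month ones. A piece of whole lung from 1 rat gave 1 library of stranded total RNA depleted of ribosomal RNA, so the p-values measure the spread between rats.

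Crystalline silica is a mineral dust that alveolar macrophages take up and cannot digest. The particles damage the phagolysosome, and the cells answer with interleukin 1, chemokines for monocytes and neutrophils, lysosomal enzymes and, when overloaded with surfactant, lipid storage. Alveolar type 2 cells make the surfactant and multiply after injury, and silica exposure is known for nodular fibrosis and for accumulations of surfactant in the air spaces.

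The libraries held 3078216 to 7353753 counts in silica rats and 4554669 to 8319382 in air rats. Of 30045 gene symbols, 15276 had enough counts to be tested. Lung markers were high in both groups: Sftpc, a surfactant protein of type 2 cells, ran from 9744 to 11916 CPM (counts scaled for library size) in silica lungs and 5076 to 6635 CPM in air lungs, and Scgb1a1, the club cell secretory protein, from 2279.8 to 2877 CPM in silica lungs and 2539 to 4739 CPM in air lungs. In a principal component analysis of the 1000 most variable genes, the first component held 66.6% of the variance, with silica rats between 14.46 and 30.9 and air rats between -30.74 and -22.32. Silica rat 1 lay nearest the air rats, at 14.46, and the other silica rats began at 24.05. Among 110 genes called at least 4-fold higher in silica lungs, silica rat 1 was the lowest silica rat for 56, and air rat 6 was the highest air rat for 47.

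The libraries also differed in how much they spent on the symbols Rnr1 and Rnr2, which the table carries without an annotation. They took 7.29% to 7.85% of the counts in silica rats and 4.62% to 7.19% in air rats, with no overlap between the groups. The means were 7.66% ± 0.217 and 6.21% ± 1.11 (SD, n = 6 each), a difference of 1.45 percentage points (exact two-sided permutation test, p = 0.00216, the smallest that 924 arrangements can give). The share was tested because it was already known to differ between these groups. The p-value therefore only describes the separation. On the regular diet the shares were 2.6% to 5.35% in silica rats and 0.375% to 2.29% in air rats, so the silica rats stood higher there too. As single genes neither was called in edgeR's quasi-likelihood fit that also held the regular-diet rats. Rnr1 had 0.54 ± 0.45 on the log2 scale (with SE, adjusted p = 0.33) and Rnr2 0.34 ± 0.23 (adjusted p = 0.22). Both were called in the same test on the high-fat groups alone, Rnr1 at 0.53 (adjusted p = 0.00756) and Rnr2 at 0.32 (adjusted p = 0.00759). With the share as a covariate, 81.9% of the calls of silica against air remained, and with both symbols left out before library sizes were set, 94.7%. The share moves with silica, so a call lost with the covariate may be a silica effect that the covariate took up. The same covariate gave 116 genes in place of 167 for the difference between diets and 1572 in place of 1681 for the difference between times, both described below.

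**Figure D1:**
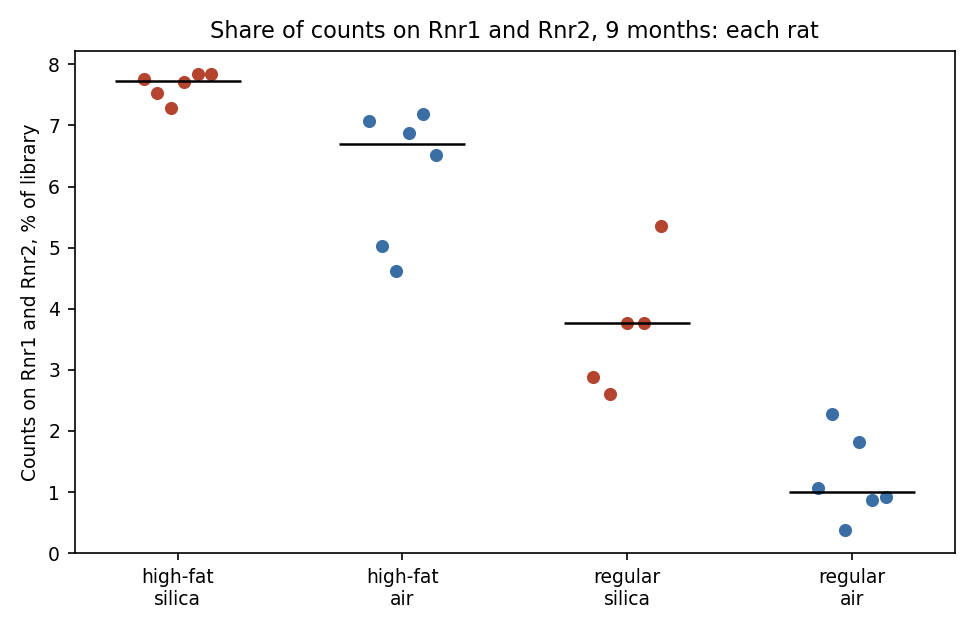
Share of all counts on Rnr1 and Rnr2, in % of the library, for each rat at 9 months (points) with the group median (line), by diet and exposure. All 6 high-fat silica rats, from 7.29%, lie above all 6 high-fat air rats, which end at 7.19%.

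Silica on the high-fat diet changed a large part of the genes that could be tested. In all, 7875 genes (51.6%) passed an adjusted p of 0.05 in edgeR's quasi-likelihood test, 4072 of them (26.7%) higher and 3803 (24.9%) lower in silica lungs. Most changes were small, with a median absolute log2 fold change of 0.475 among the called genes. At least 2-fold differences were more often rises, with 733 genes (4.8%) higher and 322 (2.11%) lower. All silica rats stood above all air rats for 2566 genes (16.8%) and below them for 1962 (12.8%). The median log2 fold change over all tested genes was 0.000561. Against that background, genes of macrophages, innate defence, lysosomes, surfactant and cholesterol synthesis were mostly higher, and genes of endothelium, alveolar type 1 cells, fibroblasts, smooth muscle and mesothelium were mostly lower. In whole tissue, fewer cells of a type and less RNA per cell cannot be told apart. Counts scaled for library size are relative, so neither can be told from a gain of RNA in other cells.

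**Figure D2:**
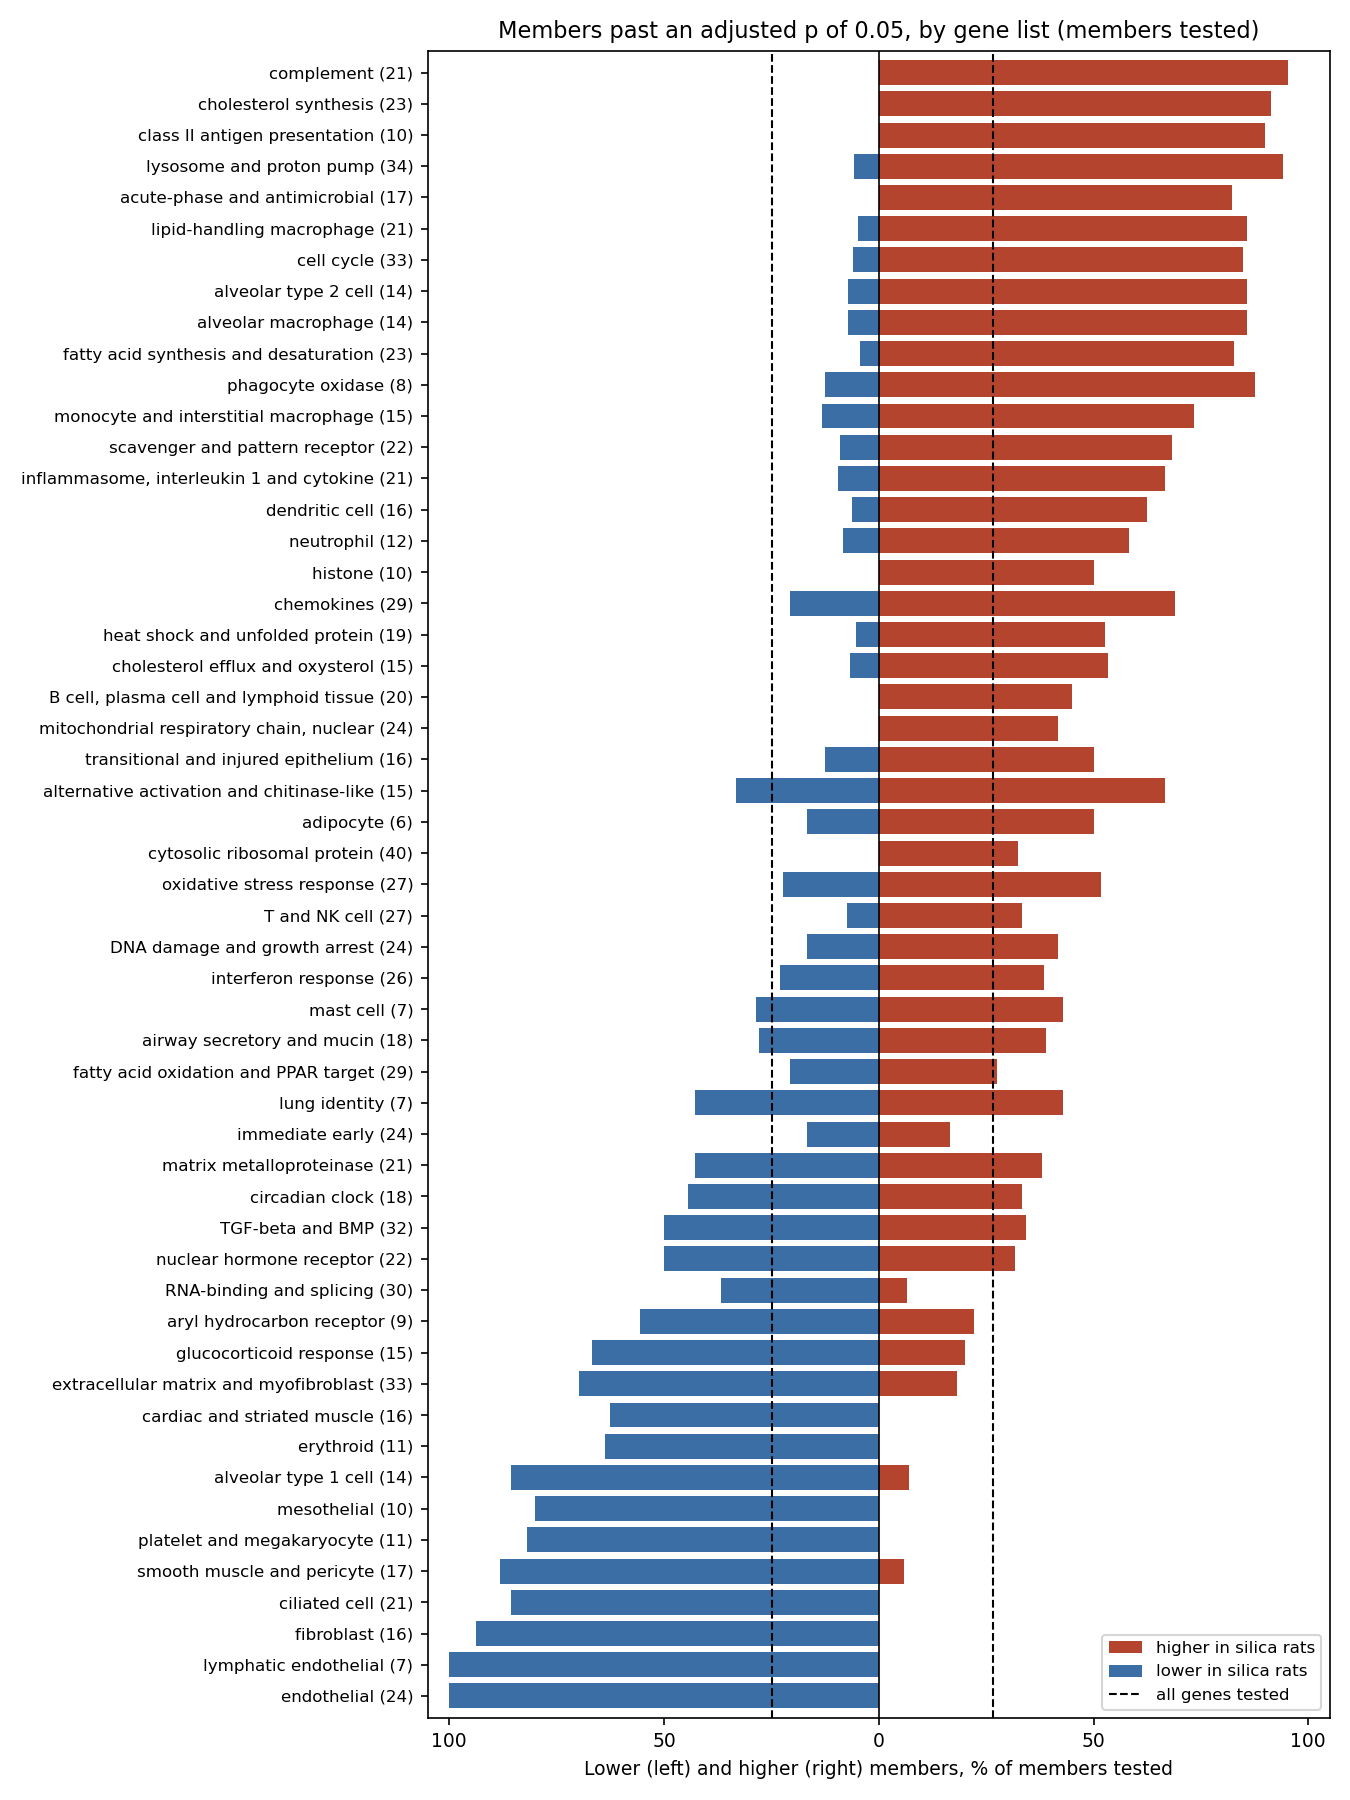
Share of the tested members of each gene list that were called higher (right, red) or lower (left, blue) in silica lungs, in % of members tested, with the number tested in brackets; dashed lines mark the shares over all tested genes, 26.7% higher and 24.9% lower. Endothelial, lymphatic and fibroblast lists lie at the lower end and complement, cholesterol synthesis and class II lists at the upper end.

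The largest rises included genes of macrophages and of airway and alveolar defence, several of them at a few CPM or less in most air lungs. Spp1 encodes osteopontin, a secreted phosphoprotein of activated macrophages. It had 177, 328 and 379 CPM (lowest, median and highest of 6) in silica lungs, against 1.16, 1.64 and 10.5 CPM in air lungs, 6.90 ± 0.35 on the log2 scale, as fold changes are given throughout (with SE; adjusted p = 3.2e-14). Retnla, a resistin-like protein of alternatively activated macrophages, had 509.8, 580.0 and 663 CPM in silica lungs and 3.26, 5.41 and 18.5 CPM in air lungs (6.43 ± 0.26, adjusted p = 7.0e-16). Mmp12, the macrophage elastase, had 105.7, 140.5 and 145.0 CPM in silica lungs and 0.29, 1.65 and 5.89 CPM in air lungs (6.14 ± 0.39, adjusted p = 1.9e-12). In all 3 genes the groups were far apart, silica rat 1 had the lowest silica value and air rat 6 the highest air value. Without air rat 6 the log2 fold changes were 7.68 for Spp1, 6.86 for Retnla and 6.61 for Mmp12.

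Lpo, lactoperoxidase, had 114.8, 134.8 and 149 CPM in silica lungs and 0, 0.141 and 6.55 CPM in air lungs (7.09 ± 0.38, adjusted p = 6.0e-14). Slc26a4, the anion exchanger pendrin, which supplies lactoperoxidase with its substrate thiocyanate, had 234, 279 and 295 CPM in silica lungs and 1.93, 3.01 and 14.2 CPM in air lungs (5.99 ± 0.29). Air rat 6 again held the highest air value of both, and without it their log2 fold changes were 9.10 and 6.56. Duox1, the dual oxidase that supplies lactoperoxidase with hydrogen peroxide, had 52.6, 69.1 and 90.5 CPM in silica lungs and 9.79, 15.1 and 18.2 CPM in air lungs (2.29 ± 0.16, adjusted p = 8.9e-12); it was picked after its values were seen. The other dual oxidase of the list, Duox2, and its maturation factor Duoxa2 had too few counts for the test, 40 and 20 in all silica rats and 54 and 33 in all air rats. Chia, the acidic mammalian chitinase, had 2129.8, 2340.0 and 2539 CPM in silica lungs and 83.6, 98 and 187 CPM in air lungs (4.39 ± 0.23, adjusted p = 5.0e-14). The other genes of the 15 largest rises were Tmem72 (6.45), Cpne5 (6.11), Scn10a, a voltage-gated sodium channel (5.52), Irg1, which makes itaconate in activated macrophages (4.42), Mab21l3 (4.32) and the chemokines Ccl7, Ccl2, Cxcl6 and Ccl22 described below.

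Several of the smallest p-values among rises belonged to genes with moderate changes and little spread. Hmox1, heme oxygenase 1, had 91, 108.7 and 111.5 CPM in silica lungs and 22.7, 25.3 and 29.5 CPM in air lungs (2.04 ± 0.07, adjusted p = 7.3e-17). Cd68, a lysosomal glycoprotein of macrophages, had 161, 212 and 233 CPM in silica lungs and 39.2, 42 and 47.5 CPM in air lungs (2.26 ± 0.09, adjusted p = 7.0e-16). Gpnmb, a glycoprotein of lysosome-rich macrophages, had 1426, 1880.5 and 2090.0 CPM in silica lungs and 245, 271 and 352 CPM in air lungs (2.70 ± 0.12, adjusted p = 1.3e-15). No silica rat overlapped an air rat in any of the 3. Chi3l1, a chitinase-like protein (2.61 ± 0.11), Atp8a1, a phospholipid flippase (1.74 ± 0.07), and Slc7a7, a subunit of a cationic amino acid transporter (2.27 ± 0.09), complete the 10 with C3, Tmem72, Retnla and Cpne5.

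**Figure D3:**
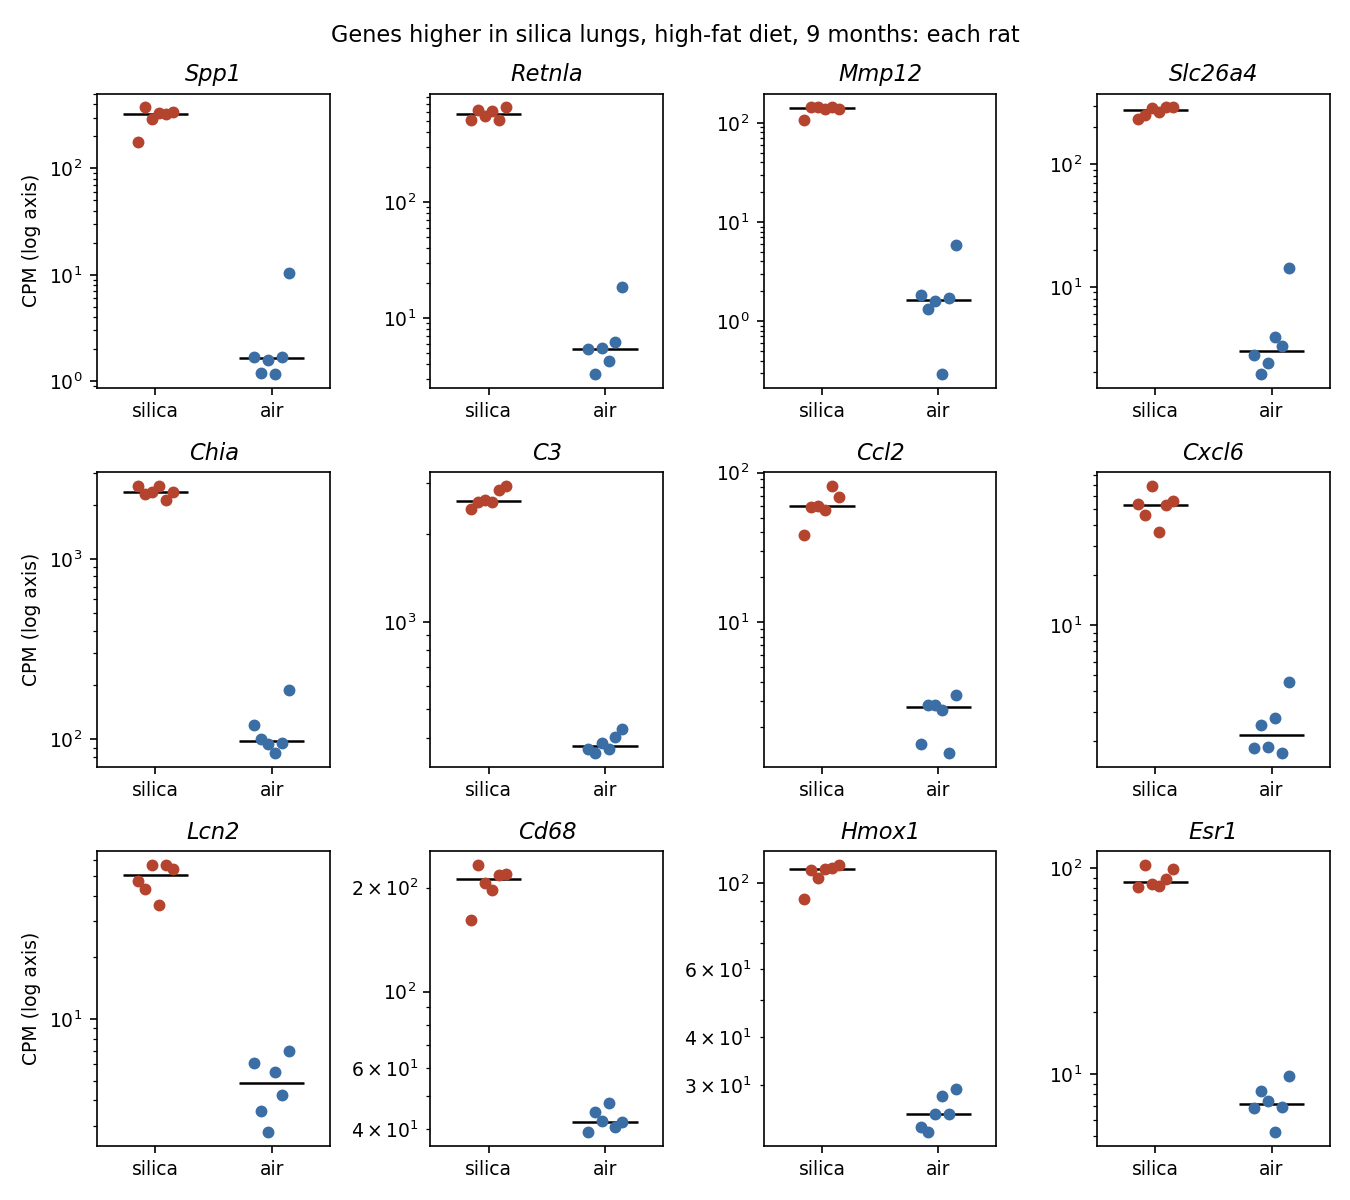
Level in CPM (log axis) of 12 genes called higher in silica lungs, for each high-fat rat at 9 months (points) with the group median (line). In each gene the 6 silica rats lie above the 6 air rats, and air rat 6 holds the highest air value for Spp1 (10.5 CPM), Retnla (18.5 CPM), Mmp12 (5.89 CPM) and Slc26a4 (14.2 CPM).

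Chemokines, the secreted proteins that draw leukocytes into tissue, were mostly higher. Of 29 tested, 20 rose, 6 fell and 3 did not pass the test. The strongest were ligands for monocytes and neutrophils. Ccl2, which recruits monocytes through Ccr2, had 38.1, 59.5 and 81.5 CPM in silica lungs and 1.33, 2.71 and 3.27 CPM in air lungs (4.69 ± 0.24, adjusted p = 3.5e-14). Ccl7, another Ccr2 ligand, had 12.2, 22.7 and 31.2 CPM in silica lungs and 0.399, 0.67 and 1.53 CPM in air lungs (4.86 ± 0.32). Cxcl6, a neutrophil chemokine, had 36.6, 53.4 and 69.1 CPM in silica lungs and 1.7, 2.193 and 4.58 CPM in air lungs (4.43 ± 0.27, adjusted p = 8.7e-13). In all of these the lowest silica rat stood more than 5-fold above the highest air rat.

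Other neutrophil ligands rose as well, Cxcl1 by 1.48 ± 0.14, Cxcl2 by 2.51 ± 0.33 and Cxcl3 by 0.63 ± 0.09. Among ligands for monocytes and macrophages, Ccl3 rose by 2.25 ± 0.13, Ccl4 by 0.72, Ccl6 by 0.46, Ccl9 by 2.31 ± 0.24, Cx3cl1 by 1.48 ± 0.07, Cxcl16 by 0.71 and Cxcl17 by 0.96. The Ccr4 ligands Ccl17 and Ccl22, which draw T cells of the Th2 and regulatory kinds, rose by 1.90 and 4.15 at low levels, with medians of 1.8 and 4.47 CPM in silica lungs and 0.452 and 0.133 CPM in air lungs. Without air rat 6 the log2 fold change of Ccl22 was 4.88. The interferon-induced Cxcr3 ligands Cxcl9, Cxcl10 and Cxcl11 rose by 1.01, 1.81 and 1.96, and the lymphoid chemokines Cxcl13 and Ccl19 by 2.15 and 1.34. Without air rat 4 the log2 fold change of Cxcl11 was 2.57. The 6 that fell were the lymphatic chemokine Ccl21 (-0.43), the eotaxin Ccl24 (-0.72), the stromal chemokine Cxcl12 (-0.36), Cxcl14 (-0.83) and the platelet chemokines Pf4 (-0.92) and Ppbp (-2.01, and -2.62 without silica rat 1). Ccl5 (0.02), Ccl11 (-0.39) and Ccl20 (-0.09) did not pass the test. With the Rnr1 and Rnr2 share as a covariate Ccl24, Pf4 and Ppbp no longer passed the test. Ccl1 had 3 to 13 counts in each silica rat, 49 in all, and 0 in all air rats, too few to enter the test.

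Promoter letters of 6 of these defence genes are shown because NF-kB, a transcription factor of inflammatory signalling, is known to act on chemokine and acute-phase promoters. The sequences are RefSeq's for rat build GRCr8, on the strand of the gene, taken from the 250 bases before its start; the counts were made on the older build Rnor_6.0. Capitals mark matches on either strand to an NF-kB motif, the letters GGGA and CC with any 4 bases between them, which overlap where both strands match.
Cxcl1 chr14:17479365-17479454, minus strand: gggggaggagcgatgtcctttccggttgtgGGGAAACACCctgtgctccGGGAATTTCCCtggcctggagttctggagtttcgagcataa
Cxcl2 chr14:17467289-17467358, minus strand: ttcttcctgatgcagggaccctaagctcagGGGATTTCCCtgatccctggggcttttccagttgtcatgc
Cxcl6 chr14:17596465-17596535, minus strand: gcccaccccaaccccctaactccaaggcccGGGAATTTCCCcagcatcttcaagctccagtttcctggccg
Ccl7 chr10:67514006-67514075, plus strand: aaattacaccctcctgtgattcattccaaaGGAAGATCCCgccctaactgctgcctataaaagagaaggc
Lcn2 chr3:36081983-36082030, minus strand: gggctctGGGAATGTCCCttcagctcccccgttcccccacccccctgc
C3 chr9:2201369-2201438, minus strand: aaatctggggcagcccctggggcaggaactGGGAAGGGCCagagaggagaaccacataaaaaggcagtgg
Of the tested chemokines 22 had a promoter in the table and 12 of those (54.5%) held the motif, as did 5 of 12 acute-phase and antimicrobial genes (41.7%) and 3 of 12 complement genes (25.0%). Over all 10274 tested genes with a promoter the share was 22.0%, over all 27455 RefSeq promoters of that length it was 16.8%, and it was 22.3% among the 524 genes at least 2-fold higher and 21.3% among the 207 at least 2-fold lower. A match is a description of letters and not a bound site.

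Most secreted defence proteins rose, with 14 of 17 tested acute-phase and antimicrobial genes higher and 0 lower. The other 3 did not pass the test, and the lowest log2 fold change of the list was -0.72. Lcn2, lipocalin 2, which withholds iron from bacteria, had 36, 50.8 and 56.6 CPM in silica lungs and 2.8, 4.88 and 6.98 CPM in air lungs (3.37 ± 0.18, adjusted p = 6.3e-14). Pigr, the receptor that carries polymeric antibodies across epithelium, was already abundant and rose by 1.35 ± 0.07. All silica rats lay above all air rats in both. The list's median log2 fold change was 1.43.

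Complement, the cascade of plasma proteins that tags particles and calls phagocytes, rose in 20 of 21 tested genes. C3, its central component, had 2440.4, 2602 and 2936 CPM in silica lungs and 353, 374 and 429 CPM in air lungs (2.80 ± 0.11, adjusted p = 7.0e-16), with no overlap. Of the alternative pathway, factor B (Cfb) rose by 1.92 ± 0.09, factor D (Cfd) by 0.63 and properdin (Cfp), which stabilises the convertase, by 0.34. Of the classical pathway, C4b rose by 2.42 ± 0.11 and C2 by 1.54, with the recognition subunits C1qa, C1qb and C1qc at 0.77, 1.00 and 0.58 and the proteases C1r and C1s at 0.34 and 0.69. Regulators moved the same way, factor I (Cfi) by 3.76 ± 0.20 and the C1 inhibitor Serping1 by 0.68. Of the terminal components C5 rose by 0.91 and C6 by 1.19, and C7 was at 0.11 ± 0.07 (adjusted p = 0.17). The receptors C5ar1 (1.5), C3ar1 (0.79) and the integrin chains Itgam (1.98) and Itgb2 (1.00) rose as well. The median over the list was 0.91.

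Class II antigen presentation, by which phagocytes and B cells show peptides to helper T cells, rose in 9 of 10 tested genes and fell in 0. Cd74, the invariant chain, had 1898, 2168 and 2396 CPM in silica lungs and 831, 879.8 and 939 CPM in air lungs (1.30 ± 0.06, adjusted p = 1.8e-14), and every silica rat stood above every air rat. The class II chains RT1-Da and RT1-Ba rose by 1.31 ± 0.07 and 1.19 ± 0.07, with near-identical copies among which the counting may divide reads, and the thiol reductase Ifi30 by 1.52 ± 0.08. The phagocyte oxidase, which makes superoxide, rose in 7 of 8 tested genes and fell in 1. Ncf1 (p47phox) rose by 2.02 ± 0.12, Cyba by 1.31 ± 0.10 and the GTPase Rac2 by 1.07 ± 0.07.

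Genes that mark macrophages loaded with lipid and debris rose nearly throughout, with 18 of 21 tested higher, 1 lower and a median of 1.62. Beside Spp1, Gpnmb and Mmp12, the fatty acid binding proteins Fabp4 and Fabp5 rose by 2.76 ± 0.16 and 1.58 ± 0.13. Fabp4 had 80.2, 100.8 and 111.9 CPM in silica lungs and 9.85, 13.7 and 20.6 CPM in air lungs. The receptor Trem2 rose by 1.65 ± 0.14, galectin 3 (Lgals3) by 2.0 ± 0.14, the scavenger receptor Msr1 by 1.62 ± 0.12, apolipoprotein E (Apoe) by 0.97 ± 0.12 and the phospholipase Pla2g7 by 1.35. The lipid droplet coat Plin2 rose by 1.00 ± 0.06 and the tetraspanin Cd63 by 1.04. The cathepsins Ctsb, Ctsd and Ctsk rose by 1.29, 1.65 and 2.57 ± 0.21, the lysosomal lipase Lipa by 0.85 and Atp6v0d2, a proton pump subunit of macrophages and osteoclasts, by 3.48 ± 0.28. Cd9 fell by 0.35 on the log2 scale, and lipoprotein lipase, Lpl (-0.01), and the fatty acid receptor Cd36 (0.22) did not pass the test. The receptor Marco was called higher from few counts, 66 in all silica rats and 3 in all air rats.

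Other macrophage lists were mostly higher without being uniform. Alveolar macrophage genes rose in 12 of 14 and fell in 1, with the cholesterol exporter Abcg1 at 1.03 ± 0.07 and Plet1 at 1.60 ± 0.11. Of 15 monocyte and interstitial macrophage genes 11 rose and 2 fell, led by the inhibitory Fc receptor Fcgr2b (2.69 ± 0.14) and the signalling adaptor Tyrobp (0.93 ± 0.07). Genes of alternative activation and chitinase-like proteins divided, 10 of 15 higher and 5 lower, with arginase 1 (Arg1) at 1.56 ± 0.17. With the Rnr1 and Rnr2 share as a covariate 2 of these rather than 5 were lower. Scavenger and pattern receptors rose in 15 of 22 and fell in 2, among those the haemoglobin receptor Cd163, which had 5.07, 7.31 and 9.23 CPM in silica lungs and 12.8, 17.5 and 23.7 CPM in air lungs (-1.32 ± 0.16).

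The lysosome, where engulfed particles end, rose almost throughout. Of 34 tested genes for lysosomal enzymes, membrane proteins and proton pump subunits, 32 rose and 2 fell, with a median of 0.86. Ctsh, cathepsin H, had 1329, 1548 and 1795 CPM in silica lungs and 417, 482 and 525 CPM in air lungs (1.72 ± 0.09, adjusted p = 8.7e-14), without overlap. The proton pump subunit Atp6v0a1 rose by 0.99 ± 0.05, cathepsin Z (Ctsz) by 1.76 ± 0.10 and progranulin (Grn) by 1.25 ± 0.07.

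Lipid synthesis rose too. Of 23 cholesterol synthesis genes 21 rose and 0 fell, with a median of 0.53. Sqle, squalene epoxidase, had 45.8, 50.7 and 55.7 CPM in silica lungs and 20.6, 27.3 and 30.3 CPM in air lungs (0.96 ± 0.09), Cyp51, lanosterol demethylase, rose by 0.90 ± 0.07, Sc5d by 0.78 ± 0.07 and Dhcr7, which makes the last step to cholesterol, by 1.25 ± 0.12. Genes of fatty acid synthesis and desaturation rose in 19 of 23 and fell in 1. Fasn, fatty acid synthase, had 2062, 2399 and 2940.0 CPM in silica lungs and 915, 1037 and 1139.8 CPM in air lungs (1.27 ± 0.11), and Scd, the stearoyl-CoA desaturase, rose by 0.83 ± 0.07, Dgat2, which forms triglyceride, by 1.38 ± 0.08 and the desaturase Fads1 by 0.50 ± 0.05. Cholesterol efflux and storage genes rose in 8 of 15 and fell in 1, led by the cholesteryl ester hydrolase Nceh1 (1.01 ± 0.06), the lysosomal cholesterol exporter Npc1 (0.86 ± 0.06) and the esterifying enzyme Soat1 (0.90 ± 0.07). Fatty acid oxidation was not far from the shares over all tested genes, 26.7% higher and 24.9% lower. Of its 29 genes 8 were higher, 6 lower and 15 not called. Among them the coactivator Ppargc1a fell by 0.96 on the log2 scale. Pdk4, which restrains glucose oxidation, had 8.77, 10.4 and 15.4 CPM in silica lungs and 12.9, 16.4 and 19 CPM in air lungs (-0.57 ± 0.17, adjusted p = 0.0058, not passed with the Rnr1 and Rnr2 share as a covariate), and Angptl4, a lipoprotein lipase inhibitor, did not pass the test (0.33 ± 0.17, adjusted p = 0.11). The sterol regulatory element TCACNCCAC was in 0 of the 16 cholesterol synthesis promoters and 0 of the 19 fatty acid synthesis promoters found, and in 0.964% over all tested genes, so no match says only that these letters are not in the 250 bases searched.

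The oxidative stress response, largely targets of the factor Nrf2, was mixed beyond its strongest members. Of 27 tested genes 14 rose and 6 fell. Beside Hmox1, sulfiredoxin (Srxn1) had 27.3, 31.8 and 36.5 CPM in silica lungs and 5.99, 6.83 and 7.99 CPM in air lungs (2.2 ± 0.11), the mitochondrial superoxide dismutase Sod2 rose by 1.42 ± 0.08 and thioredoxin reductase (Txnrd1) by 0.84 ± 0.06. The letters TGACNNNGC, the core of the element that Nrf2 binds, stood in 6 of the 22 promoters found for this list (27.3%), against 12.6% over all tested genes, 25.0% for cholesterol synthesis and 21.1% for fatty acid synthesis. Inflammasome, interleukin 1 and cytokine genes rose in 14 of 21 and fell in 2. The interleukin 1 receptor antagonist Il1rn had 48.7, 52.1 and 56.4 CPM in silica lungs and 12.9, 14.9 and 16.7 CPM in air lungs (1.80 ± 0.10), the growth factor Csf1 rose by 1.35 ± 0.09, the inflammasome sensor Nlrp3 by 0.83 ± 0.08 and the interleukin 17 receptor chain Il17ra by 0.45 ± 0.05.

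Neutrophil markers were higher in 7 of 12 tested genes and lower in 1. Cd177, a surface protein of neutrophils, had 31.3, 34.1 and 44.1 CPM in silica lungs and 3.37, 4.21 and 5.06 CPM in air lungs (3.07 ± 0.14, adjusted p = 5.3e-15). S100a9, a calcium-binding alarmin of neutrophils and monocytes, had 674, 746 and 928 CPM in silica lungs and 77, 102.2 and 163 CPM in air lungs (2.74 ± 0.28), and the receptors Cxcr1 and Csf3r rose by 1.12 ± 0.11 and 1.14 ± 0.19.

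Alveolar type 2 cells and type 1 cells moved in opposite directions. Of 14 type 2 genes 12 rose, 1 fell and 1 did not pass the test, with a median of 0.89. Sftpa1, surfactant protein A, had 12478, 14698 and 17627 CPM in silica lungs and 4833, 5654 and 6083 CPM in air lungs (1.42 ± 0.10, adjusted p = 4.6e-12), with no overlap. Sftpd, surfactant protein D, had 1305, 1406 and 1610.1 CPM in silica lungs and 531, 650.0 and 704 CPM in air lungs (1.18 ± 0.11). Sftpc rose by 0.78 ± 0.11, whereas Sftpb was at 0.13 ± 0.07 (adjusted p = 0.12), so not every surfactant protein gene passed the test. The lysozyme Lyz2, which macrophages also make, rose by 1.43 ± 0.10. Lpcat1, which makes the main surfactant lipid, rose by 1.00 ± 0.08, the lipid transporter Abca3 by 0.64, the lamellar body protein Lamp3 by 0.95, the protease Napsa by 0.94, the phosphate transporter Slc34a2 by 0.43 and the lung transcription factor Nkx2-1 by 0.84. The transcription factor Etv5 fell by 0.23 on the log2 scale. The list also holds Scd and Fasn, given above.

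Type 1 cells form the thin gas-exchange surface. Of 14 type 1 genes 1 rose and 12 fell, with a median of -0.41. Cav1, caveolin 1, which endothelium shares, had 526, 653 and 728 CPM in silica lungs and 1169.9, 1239 and 1342 CPM in air lungs (-0.95 ± 0.08, adjusted p = 2.9e-10). Rtkn2 fell by 0.79 on the log2 scale, Vegfa, which maintains nearby capillaries, by 0.51 and Hopx by 0.47. The summed level of the list was 6502 to 7718 CPM in silica rats and 8590.2 to 9912 CPM in air rats, without overlap.

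Airway genes did not move as one. Secretory and mucin genes rose in 7 of 18 and fell in 5. Muc1, a membrane mucin, had 488, 677 and 817 CPM in silica lungs and 168, 192 and 202 CPM in air lungs (1.83 ± 0.09), and Bpifb1, a secreted lipid-binding protein of airways, had 72.2, 98.8 and 118.8 CPM in silica lungs and 2.32, 7.53 and 20.8 CPM in air lungs (3.35 ± 0.34). Against these, the club cell enzyme Cyp4b1 fell by 0.69 on the log2 scale, and Scgb1a1 had 2279.8, 2515 and 2877 CPM in silica lungs and 2539, 3353 and 4739 CPM in air lungs (-0.44 ± 0.14, adjusted p = 0.012). Ciliated cell genes fell in 18 of 21 and rose in 0, with a median of -0.55. Tppp3 had 229.7, 272 and 292 CPM in silica lungs and 420.4, 457 and 531 CPM in air lungs (-0.83 ± 0.10), and the motor and axoneme genes Dnah11, Ccdc39 and Dnah9 fell by 0.55, 0.66 and 0.59. Their summed level was 1024 to 1459.9 CPM in silica rats and 1458 to 2296 CPM in air rats, which overlap at the margin.

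Endothelial genes fell without exception, 24 of 24, with a median of -0.60. Pecam1, the junction protein CD31, had 225, 244 and 264 CPM in silica lungs and 324, 361 and 391 CPM in air lungs (-0.56 ± 0.07, adjusted p = 1.9e-07). Cyyr1 fell by 0.74 on the log2 scale, the arterial transcription factor Sox17 by 0.86 and the junction molecule Esam by 0.47. The summed level was 6616 to 7424 CPM in silica rats and 10015 to 11447 CPM in air rats, with a gap between the groups. Lymphatic endothelial genes fell in 7 of 7, among them the hyaluronan receptor Lyve1 (-0.80 ± 0.09), the growth factor receptor Flt4 (-0.50 ± 0.08) and Mmrn1 (-0.78 ± 0.16).

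The 10 smallest p-values among decreases held genes of caveolae, adhesion and signalling. Acoxl, an acyl-CoA oxidase-like protein, had 16.1, 17.9 and 27 CPM in silica lungs and 58.7, 63.5 and 73.3 CPM in air lungs (-1.72 ± 0.11, adjusted p = 1.1e-12). Cav2, the partner of caveolin 1, had 188, 199 and 249 CPM in silica lungs and 401, 418 and 436 CPM in air lungs (-1.01 ± 0.07), and the caveolar protein Sdpr fell by 0.78 on the log2 scale. Lims2, of integrin adhesions, fell by 1.01, the Wnt receptor Fzd4 by 0.87, the tuft cell ion channel Trpm5 by 1.63, the signalling regulator Rgs12 by 0.86, the ATP-gated channel P2rx1 by 1.09 and Pxdc1 by 0.69. The remaining gene of these 10 was Zbtb16, given with the glucocorticoid response.

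Stromal genes fell as well. Fibroblast genes fell in 15 of 16 and rose in 0, led by Scube2 (-0.79 ± 0.07), the growth factor receptor Pdgfra (-0.79 ± 0.08) and the mesenchymal transcription factor Tcf21 (-0.87 ± 0.11). Smooth muscle and pericyte genes fell in 15 of 17. The proteoglycan Cspg4 fell by 0.82 on the log2 scale, Notch3 by 0.63 and the actin-binding Tagln by 0.66. The single gene higher was Hhip, an inhibitor of hedgehog signalling (0.72 ± 0.06).

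Extracellular matrix genes, the components of a scar, divided unevenly: 6 of 33 rose, 23 fell and 4 did not pass the test, with a median of -0.40. Col1a1, a chain of the type I collagen of scars, had 42.4, 45.9 and 51.8 CPM in silica lungs and 48.8, 60.2 and 67.2 CPM in air lungs (-0.35 ± 0.09, adjusted p = 0.0033). Col3a1 had 424, 436 and 446 CPM in silica lungs and 563, 592 and 651 CPM in air lungs (-0.46 ± 0.05, adjusted p = 1.3e-08). Both fell relative to the other RNA of these whole-lung samples. For Col1a2 the table holds 0 counts in all 12 rats, so it was not analysed here.

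The fibrillar Col5a1 and Col5a2 fell by 0.47 and 0.64 on the log2 scale, the basement membrane Col4a1 and Col4a2 by 0.57 and 0.61, and Col6a1 and Col6a3 by 0.69 and 0.73. Col12a1 and Col14a1 fell by 0.29 and 1.13, elastin (Eln) and fibrillin 1 (Fbn1) by 0.46 and 0.55, periostin (Postn) by 0.68, tenascin C (Tnc) by 0.74, Sparc by 0.37 and Bgn by 0.31. The crosslinking enzymes Loxl1, Loxl2, Loxl3 and Loxl4 fell by 0.38, 0.73, 0.51 and 0.40, the inhibitor Timp3 by 0.31 and the contractile Acta2 by 0.50. Acta2 failed the test when silica rat 1 and air rat 6 were left out together (-0.417, adjusted p = 0.0604). The 6 that rose were Col16a1, a collagen that joins fibrils, which had 261, 294 and 369.7 CPM in silica lungs and 86.9, 103.7 and 111.1 CPM in air lungs (1.57 ± 0.08, adjusted p = 5.1e-14), the epithelial Col17a1 (0.69), Cthrc1, a marker of matrix-producing fibroblasts (1.23 ± 0.25), the thrombospondins Thbs1 (0.42) and Thbs2 (1.04), and the protease inhibitor Timp1 (0.49, not passed with the Rnr1 and Rnr2 share as a covariate). Fn1 (0.18), Lox (-0.13), Timp2 (-0.06) and Col8a1 (-0.02) did not pass the test, though Fn1 did without silica rat 1 (adjusted p = 0.0396).

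Matrix metalloproteinases divided, 8 of 21 higher and 9 lower. The membrane-bound Mmp14 had 136.3, 153 and 166 CPM in silica lungs and 55.3, 62.5 and 71.4 CPM in air lungs (1.28 ± 0.07), Adam19 rose by 1.03 ± 0.07, and Mmp7 had 85 counts in all silica rats and 3 in all air rats. TGF-beta and BMP genes divided too, 11 of 32 higher and 16 lower. The receptors Tgfbr1 and Tgfbr2 rose by 0.96 ± 0.07 and 0.43 ± 0.04, whereas Ltbp1, which holds latent TGF-beta in the matrix, and the receptor Bmpr2 fell by 0.78 and 0.71 on the log2 scale.

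Among the largest falls several genes belong to the mesothelium, the layer that covers the lung. Mesothelial genes fell in 8 of 10 and rose in 0. Upk3b had 0.342, 0.986 and 3.74 CPM in silica lungs and 8.26, 14.7 and 21.5 CPM in air lungs (-3.07 ± 0.48, adjusted p = 7.3e-06), Gpm6a had 2.04, 4.93 and 6.87 CPM in silica lungs and 16.5, 22.5 and 42.3 CPM in air lungs (-2.42 ± 0.36), and the mesothelial transcription factor Wt1 fell by 2.51 on the log2 scale. Muc16 and Aldh1a2 fell by 2.25 and 1.61. The summed level of the list was 279.6 to 383 CPM in silica rats and 466 to 738 CPM in air rats. The labels do not say how much pleural surface each piece held, and its part in the other falls was not tested. Platelet genes fell in 9 of 11, with summed levels of 64.7 to 128.3 CPM in silica rats and 120.1 to 274 CPM in air rats that overlap. With the Rnr1 and Rnr2 share as a covariate 5 of them were called. Clec1b fell by 2.04, Gp9 by 2.15 and the integrin Itgb3 by 0.55, with Gp6 at -1.66.

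Heart muscle, which in rats also sheathes the pulmonary veins, was represented unevenly among rats of 1 group. Of 16 tested, 10 fell and 0 rose, but the calls rest on single rats. Mb, myoglobin, had 0.747, 1.36 and 51.9 CPM in silica lungs and 3.86, 62.9 and 333 CPM in air lungs (-3.16 ± 1.13, adjusted p = 0.021). Silica rat 1 held 51.9 CPM and the other silica rats at most 2.05, so that without it the fold change was -6.34. Summed over the list the levels were 213 to 981 CPM in silica rats and 240.4 to 2930.1 CPM in air rats, which overlap. Without air rat 4 no gene of the list was called, 2 were without air rat 5 or without silica rat 3, 4, 5 or 6, 4 without silica rat 2, and 6 without air rat 6. Myl3, Ckm, Myh7 and Ckmt2 also stood among the 15 largest falls, at -3.12, -2.77, -2.74 and -2.54. Without silica rat 1 these were -6.56, -4.25, -5.46 and -4.12, and without air rat 4 none of them passed the test, at -2.18 (adjusted p = 0.102), -2.0 (0.0842), -2.23 (0.0927) and -1.67 (0.164). Myh7 also failed without air rat 5 or any of silica rats 2 to 6, and Ckmt2 without air rat 5 or any of silica rats 3 to 6. Pck1, a gene of gluconeogenesis and fat, was at -2.54 ± 0.94 (adjusted p = 0.026) and failed without air rat 1 (0.0788), silica rat 5 (0.0543) or silica rat 6 (0.0602).

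Erythroid genes fell in 7 of 11 and rose in 0, among them the globin Hbb (-0.70 ± 0.17), which has near-identical copies, and the haemoglobin stabiliser Ahsp (-1.60 ± 0.54), with Hba2 at -0.39 ± 0.13 and the red cell membrane protein Epb42 at -1.67 ± 0.61. The summed level of the list was 2145 to 3440 CPM in silica rats and 3348 to 4897 CPM in air rats, which overlap. Hba2 failed the test without air rat 3 (adjusted p = 0.0524) and Epb42 without air rat 5, silica rat 5 or silica rat 6 (0.0544, 0.0624 and 0.0614). The number called was 3 without silica rat 5 or 6, 4 without air rat 5, 11 in a fit of the high-fat groups alone and 1 with the Rnr1 and Rnr2 share as a covariate. The remaining large falls were Slc26a3, a chloride and bicarbonate exchanger (-3.74 ± 0.63, and -4.34 without silica rat 6), Dlk1, a Delta-like membrane protein, which had 0.299, 0.908 and 2.11 CPM in silica lungs and 7.06, 12.9 and 16.6 CPM in air lungs (-3.65 ± 0.41, adjusted p = 4.8e-08), Klk6 (-2.94, and -3.64 without silica rat 1), the sulfotransferase Chst4 (-2.66), the insulin-responsive glucose transporter Slc2a4 (-2.53, and -3.34 without silica rat 1) and Wnt2b (-2.35). Kcnmb2, a subunit of a potassium channel, fell as well (-2.06 ± 0.27, adjusted p = 6.7e-07). Cyp2b2 had 0 counts in all silica rats, and 37 and 45 counts in air rats 3 and 5 with 0 in the others, too few to enter the test.

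**Figure D4:**
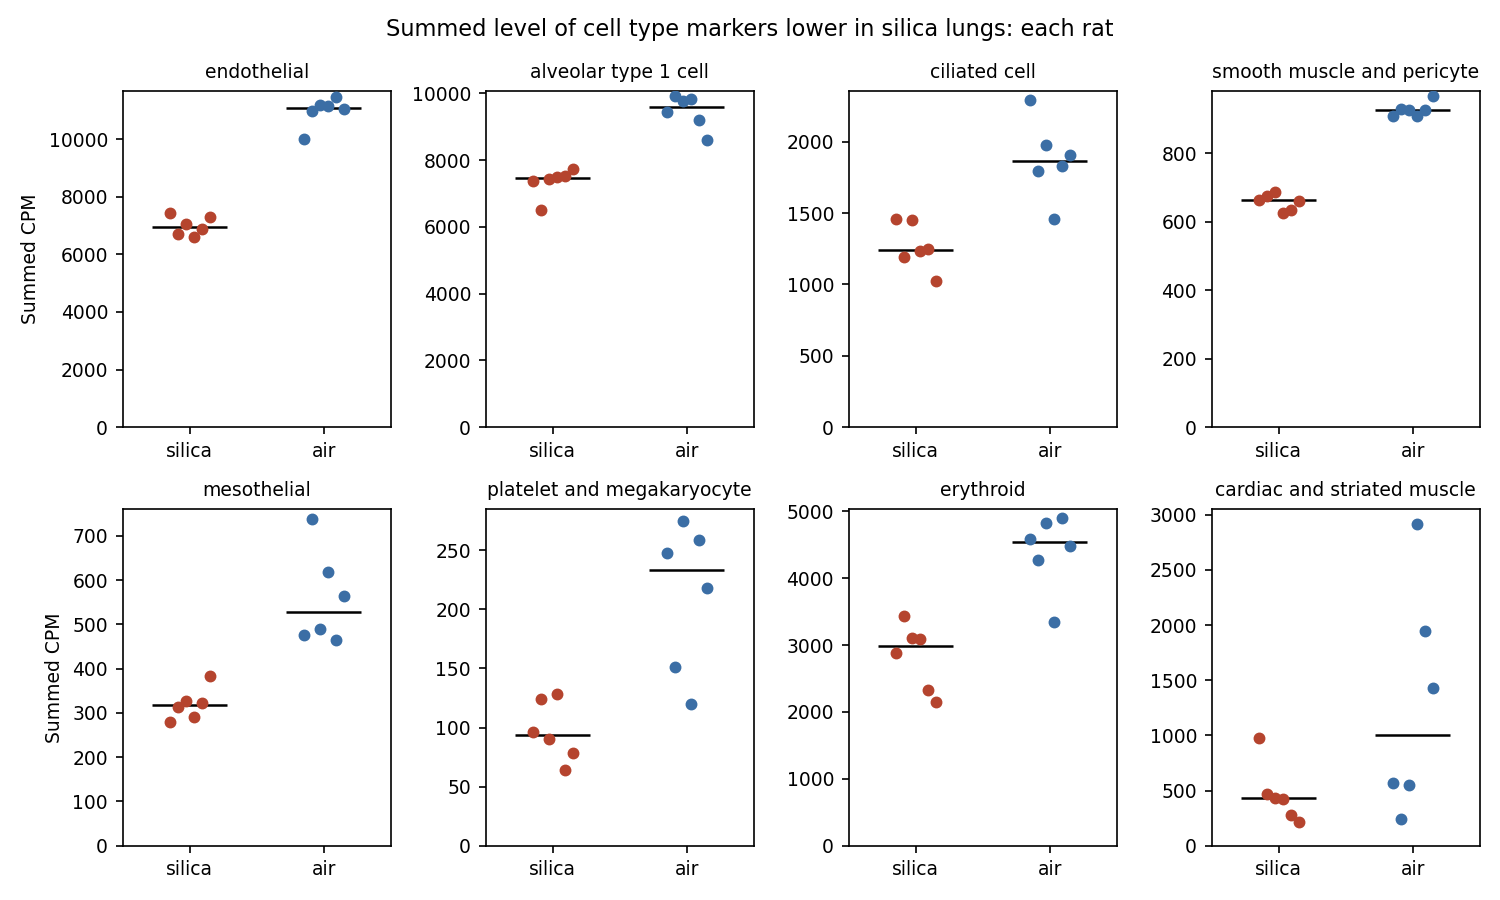
Summed CPM of the tested members of 8 marker lists for each high-fat rat at 9 months (points) with the group median (line). Silica rats lie below all air rats in the endothelial, alveolar type 1, smooth muscle and mesothelial panels. The groups overlap in the cardiac, platelet and erythroid panels and, at the margin, in the ciliated panel.

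Lymphoid lists moved in part. Of 27 T and NK cell genes 9 were higher, 2 lower and 16 not called, so the share higher was not far from the 26.7% over all genes. The number lower was 1 without silica rat 5, 4 without silica rat 6 or air rat 1, and 0 with the Rnr1 and Rnr2 share as a covariate. Those with the smallest p include genes of activated and regulatory T cells. The costimulator Icos had 14.4, 17.1 and 26.3 CPM in silica lungs and 5.23, 5.69 and 6.42 CPM in air lungs (1.60 ± 0.18, adjusted p = 5.7e-08), Foxp3, the transcription factor of regulatory T cells, had 2.48, 3.23 and 4.1 CPM in silica lungs and 0.145, 0.902 and 1.31 CPM in air lungs (2.01 ± 0.30), and the interleukin 2 receptor chain Il2ra rose by 1.13 ± 0.23. Genes of B cells, plasma cells and lymphoid tissue rose in 9 of 20 and fell in 0, led by Derl3 (1.5 ± 0.12), Xbp1 (0.44 ± 0.05) and Irf4 (1.27 ± 0.15), all active in antibody-secreting cells among others. Dendritic cell genes rose in 10 of 16 and fell in 1, among them the costimulatory Cd86 (1.22 ± 0.11), Cd83 (1.04 ± 0.10) and the cross-presenting cell's receptor Xcr1 (1.94 ± 0.27). Mast cell genes divided, 3 of 7 higher and 2 lower, with the protease Cpa3 at 2.41 ± 0.31 and the receptor Kit, which lung endothelium also carries, at -0.70 ± 0.09. The number of mast cell genes higher was 1 in a fit of the high-fat groups alone and 5 without a filter on low counts.

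Proliferation genes rose in 28 of 33 and fell in 2, with a median of 1.13. Mki67, the proliferation marker, had 83.4, 103.2 and 122.3 CPM in silica lungs and 30.7, 35.1 and 43.9 CPM in air lungs (1.51 ± 0.10, adjusted p = 4.8e-12), without overlap. Top2a rose by 1.28 ± 0.11, the replication helicase Mcm5 by 1.72 ± 0.16 and the centromere protein Cenpf by 1.13 ± 0.11. DNA damage and growth arrest genes rose in 10 of 24 and fell in 4, led by Gadd45g (1.27 ± 0.14). The interferon response list was mixed, with 10 members called higher, 6 lower and 10 not called. Its log2 fold changes ran from -1.69 to 0.87, with a median of 0.12, so the largest change was a fall. Stat2, among the 4 with the smallest p, rose by 0.39 ± 0.06. Summed levels overlapped, at 1552.2 to 1864.5 CPM in silica rats and 1641.9 to 2033.1 CPM in air rats. With the Rnr1 and Rnr2 share as a covariate 4 members rather than 10 were called higher.

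Nuclear receptor and hormone-responsive genes changed as well. Esr1, oestrogen receptor alpha, had 80.7, 86.2 and 103.9 CPM in silica lungs and 5.23, 7.18 and 9.82 CPM in air lungs (3.61 ± 0.15, adjusted p = 1.3e-15), so that the lowest silica rat was more than 5-fold above the highest air rat. Nuclear receptors as a list divided, 7 of 22 higher and 11 lower. Genes of the glucocorticoid response fell in 10 of 15 and rose in 3. Zbtb16, a transcription factor strongly induced by glucocorticoids, had 43.1, 52.9 and 65.9 CPM in silica lungs and 167, 215 and 287 CPM in air lungs (-2.04 ± 0.15, adjusted p = 2.1e-11), with no overlap. The receptor itself, Nr3c1, fell by 0.42 on the log2 scale, Klf15 by 1.27, Klf9 by 0.67, Tsc22d3 (GILZ) by 0.64, Fkbp5 by 0.82, Hif3a by 1.84, and Dusp1 by 0.72, with the clock gene Per1 at -0.77 and Pdk4 as given above. The kinase Sgk1 rose by 0.56 and the metallothioneins Mt1a and Mt2A by 0.89 and 0.87. With the Rnr1 and Rnr2 share as a covariate Fkbp5, Pdk4 and Mt1a no longer passed the test. Errfi1 (-0.27) and Cebpd (-0.12) did not pass the test, though Errfi1 did without silica rat 5 (adjusted p = 0.026). Of 18 clock genes 6 rose and 8 fell, with Bhlhe41 at 1.91 ± 0.11 and Bhlhe40 at 1.18 ± 0.09 the most changed. Cyp1a1, the cytochrome P450 induced by the aryl hydrocarbon receptor, had 2.41, 3.66 and 5.34 CPM in silica lungs and 8.97, 11 and 15.4 CPM in air lungs (-1.72 ± 0.20, adjusted p = 6.0e-09).

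Other lists lay nearer to the shares over all tested genes, 26.7% higher and 24.9% lower, in 1 direction or both. Cytosolic ribosomal proteins rose in 13 of 40, not far from that share, and fell in 0, such as Rpl15 (0.33 ± 0.05). RNA-binding and splicing genes fell in 11 of 30 and rose in 2, with Ddx5 at -0.27 ± 0.04. Immediate early genes, which respond within minutes to handling of tissue, rose in 4 of 24 and fell in 4, both below those shares, with Myc at 0.99 ± 0.09, and without silica rat 1 the number higher was 7.

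Most of the silica effect on the high-fat diet was also seen on the regular diet at the same time, in other rats. There 3735 genes (24.5%) were higher and 3150 (20.6%) lower with silica. Of the genes higher on the high-fat diet, 72.2% were higher on the regular diet, which is 78.7% of those higher there. For lower genes the shares were 65.3% and 78.9%, and 20 genes were called in opposite directions. The log2 fold changes of the diets correlated across 15276 genes with r = 0.85, a description across genes, which are not independent replicates.

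A test of the difference between the silica effects called 167 genes (1.09%), 84 with a higher effect (0.55%) and 83 with a lower effect (0.543%) on the high-fat diet. Of all 15276, 2175 had an unadjusted p below 0.05. Lipid-handling macrophage genes were the list with most of them, 7 of 21, all with a larger rise on the high-fat diet. Gpnmb averaged 1814 ± 239.7 CPM in high-fat silica lungs and 279.9 ± 37.7 CPM in high-fat air lungs (SD, n = 6 each). On the regular diet it averaged 1744 ± 221 CPM in silica lungs (n = 5) and 504 ± 88.9 CPM in air lungs (n = 6). The difference between the effects was 0.90 ± 0.16 on the log2 scale (adjusted p = 0.0055). The means of the silica lungs on the 2 diets lay within 1 SD of each other, and the air lungs were lower on the high-fat diet.

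Trem2, a lipid receptor, had means of 56.9 ± 3.98 CPM in high-fat silica and 18.1 ± 3.88 CPM in high-fat air lungs, and 71.3 ± 6.87 CPM in regular-diet silica and 48 ± 12.9 CPM in regular-diet air lungs (difference 1.07 ± 0.19, adjusted p = 0.0055). The effect on Lgals3 differed by 0.93 ± 0.20, on Ctsk by 1.12 ± 0.28, on Ctsd by 0.64 ± 0.14, on Mmp12 by 2.63 ± 0.58 and on Atp6v0d2 by 1.81 ± 0.39. Of these Ctsk (adjusted p = 0.0499) failed the test in 16 of 23 fits that left out 1 rat, in limma voom (0.053) and with edgeR's legacy setting (0.0515), Lgals3 without regular-diet silica rat 5 (0.0569) and Mmp12 without regular-diet air rat 2 (0.0528) or high-fat air rat 3 (0.0519), and in voom (0.0684). Outside the list, Hk3, a hexokinase of myeloid cells, averaged 56.6 ± 4.8 CPM in high-fat silica lungs and 10.9 ± 1.01 CPM in high-fat air lungs, against 59.4 ± 8.52 and 22.3 ± 4.86 CPM in silica and air lungs on the regular diet (difference 0.96 ± 0.16, adjusted p = 0.0055). Cxcr1, an interleukin 8 receptor of neutrophils, averaged 22.3 ± 2.96 CPM in high-fat silica lungs and 10.1 ± 1.22 CPM in high-fat air lungs, against 21.8 ± 2.69 and 20.9 ± 3.03 CPM on the regular diet (difference 1.06 ± 0.16). In these 3 genes too, the means of the air lungs lay farther apart between diets than those of the silica lungs.

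Fatty acid synthesis and desaturation gave 4 genes of 23 with a larger silica effect on the high-fat diet, Scd by 0.45 ± 0.10, Fads1 by 0.36 ± 0.07, Fads2 by 0.48 ± 0.10 and the lipogenic transcription factor Srebf1 by 0.60 ± 0.12. Scd averaged 2228 ± 100.5 CPM in high-fat silica lungs and 1253 ± 88.8 CPM in high-fat air lungs, against 1454 ± 107.8 and 1119.5 ± 151 CPM in silica and air lungs on the regular diet. For Scd the high-fat silica lungs stood apart from the other 3 groups. Of the defence genes, Lcn2 differed by 1.43 ± 0.25 and C3 by 0.69 ± 0.15. Scd failed the test without high-fat air rat 1 (adjusted p = 0.0565) or 3 (0.0554), and C3 without regular-diet silica rat 4 (0.0544) or 5 (0.0549); both failed with the Rnr1 and Rnr2 share as a covariate, as did Ctsk. Among the 6 smallest p-values were also Naaa, a lysosomal amidase (0.88 ± 0.15), Capn5 (0.48 ± 0.08) and Flvcr2 (0.40 ± 0.07).

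In the other direction Zbtb16 had the largest difference of the 6 named, -1.95 ± 0.21 (adjusted p = 1.3e-05). It averaged 54 ± 9.36 CPM in high-fat silica lungs and 221 ± 41.3 CPM in high-fat air lungs, against 182 ± 37 and 194 ± 41.3 CPM on the regular diet, so that of the 4 groups the high-fat silica lungs were low. Zfp366 (-0.88 ± 0.15), Rcsd1 (-0.52 ± 0.09) and the RNA-binding genes Hnrnpa3 (-0.35 ± 0.06), Khdrbs1 (-0.65 ± 0.11) and Tardbp (-0.51 ± 0.09) followed. Of the 30 RNA-binding and splicing genes 5 were called, all lower. The share of Rnr1 and Rnr2 differed between these 4 groups as well, and with it as a covariate 116 genes were called, 103 of them among the 167. The number depends on the rats: it was 72 to 108 without high-fat silica rat 3, 5 or 6, high-fat air rat 1, 2 or 3, regular-diet silica rat 4 or 5, or regular-diet air rat 2, 273 without high-fat silica rat 1 and 274 without regular-diet air rat 4.

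**Figure D5:**
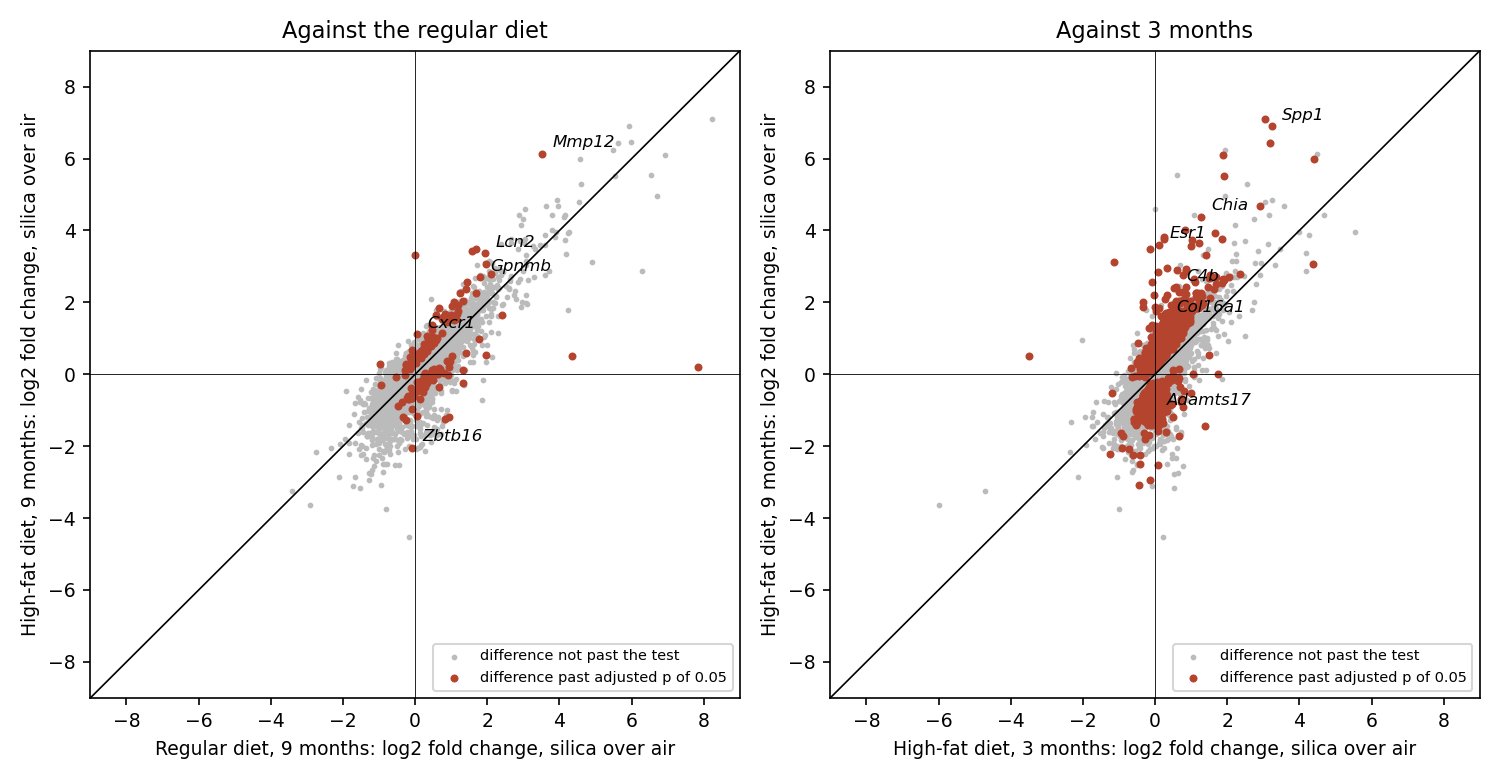
Log2 fold change of silica over air on the high-fat diet at 9 months (vertical axes) against that on the regular diet at 9 months (left) and on the high-fat diet at 3 months (right), each point 1 gene and red where the difference of the effects passed an adjusted p of 0.05; the diagonal marks equal effects. Between diets 167 of 15276 genes passed that test. Between times 1681 of 15759 did, in a fit of both tables, and the right panel draws those also among the 15276. Esr1 is among the red points on the right, with a log2 fold change of 3.61 at 9 months and 0.11 at 3 months.

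The silica effect was also set against that 3 months after the same exposure and diet, in a fit of both tables. At 3 months, with 5 rats a group in place of 6, 1540 of 15759 genes (9.77%) were higher and 1357 (8.61%) lower. The calls at the 2 times come from different fits and group sizes, so their numbers are not compared. The shares in common that follow depend on those fits and group sizes too. Of the genes called higher at 9 months 34.7% were called higher at 3 months, which is 92.6% of those higher then, and for lower genes the shares were 30.2% and 85.2%. The difference between the effects was called for 1681 genes (10.7%), 1032 with a higher effect at 9 months (6.55%) and 649 with a lower effect (4.12%). It was called for 1115 without high-fat silica rat 3 of the 3-month group. The balance of the directions depended on single rats. It was 743 higher and 722 lower without 9-month high-fat air rat 1, and 925 and 528 without 9-month high-fat silica rat 2. Time since exposure, age and the separate count tables cannot be told apart here, so only differences between silica and air are compared.

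Esr1 showed the largest difference of the 6 rises with the smallest p. Its log2 fold change was 3.61 at 9 months and 0.11 ± 0.22 at 3 months, a difference of 3.49 ± 0.28 (adjusted p = 1.9e-11). Chia had 4.39 at 9 months and 1.27 ± 0.26 at 3 months (3.12 ± 0.35), C4b 2.42 and 0.57 ± 0.14 (1.85 ± 0.19), Ncf1 2.02 and 0.57 ± 0.13 (1.45 ± 0.17) and Col16a1 1.57 and 0.30 ± 0.10 (1.27 ± 0.14). Tmtc1 completes the 6 (0.89 ± 0.10). For Spp1 the difference was 3.67 ± 0.87 (adjusted p = 0.0045, and 2.96 with an adjusted p of 0.0754 without 3-month air rat 4) and for Retnla 3.25 ± 0.53. Without 9-month air rat 6 it was 4.42 for Spp1. By contrast, Lcn2 was at 3.37 at 9 months and 4.18 ± 0.23 at 3 months (-0.81 ± 0.35, adjusted p = 0.13), and this difference passed the test only without 3-month air rat 1 (0.0344) or in DESeq2 (0.0431).

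The effect was larger at 9 months for 24 of 34 lysosome genes, 10 of 21 complement genes, 10 of 21 lipid-handling macrophage genes and 6 of 10 class II genes. Over all genes of that fit, 6.55% had a higher and 4.12% a lower effect. The lysosome and lipid-handling lists are not separate, as both hold Atp6v0d2. Matrix genes went the other way: the effect was lower at 9 months for 15 of 33 and higher for 1, Col16a1. Col3a1 was at -0.46 at 9 months and 0.12 ± 0.05 at 3 months (-0.58 ± 0.07, adjusted p = 9.0e-07), and Ltbp1 at -0.78 and -0.03 ± 0.07 (-0.75 ± 0.10). The matrix protease Adamts17 (-1.08 ± 0.17), the matrix protein Mamdc2 (-0.88 ± 0.12), the amino acid transporter Slc7a10 (-0.86 ± 0.11) and the vascular amine oxidase Aoc3 (-0.64 ± 0.10) are the other genes with the smallest p in this direction. For all 6 the silica effect at 3 months lay between -0.20 and 0.12.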

How the data were processed

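Whole-lung RNA of 12 high-fat rats at 9 months (6 silica, 6 air) was analysed, beside 11 regular-diet rats at 9 months and 10 high-fat rats at 3 months. The deposited values are raw counts per gene symbol, 1 table per time point. Per the submitters' processing notes the build was Rnor_6.0, and the tools were HTSeq 0.6.1, TopHat2 2.0.9 with Bowtie2 2.2.9, Trimmomatic 0.35, SAMtools 0.1.19 and bcl2fastq 2.19. Whether counting used strand is not given in the sources used here, so overlapping genes and near-identical copies are uncertain. The labels name no batch.

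From these counts edgeR 4.0.16 in R 4.3.3 (legacy=FALSE) filtered genes with filterByExpr, scaled libraries by TMM and fitted the 4 groups of the 9-month table together with the quasi-likelihood test. The difference between diets came from that fit and the difference between times from a fit of both tables with all their groups. The 4 air and 5 silica rats on the regular diet at 3 months thus entered the filter, scaling and estimate of spread of the latter. P-values were adjusted over all genes tested by Benjamini and Hochberg's method, with a threshold of 0.05, and fold changes are silica over air on the log2 scale with their SE. CPM use the TMM-scaled library as their base and carry no gene length, so levels of different genes are not compared. Shares were compared by exact permutation. DESeq2 1.42.0, limma 3.58.1, other scalings and filters, the Rnr1 and Rnr2 share as a covariate, and leaving out each rat were alternatives. The steps were tested on simulated data in which only a small part of the genes changed, unlike the 51.6% called here.

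Genes were named by rule: the 15 largest rises and falls with a mean log2 CPM of at least 1, the 10 smallest p in each direction, the 4 smallest p of each gene list, 6 lists in full, a fixed panel, the 6 smallest p in each direction for each difference, and genes with 0 counts in 1 group. A few genes that the rule names are not reported here. Duox1, Fads2, Srebf1, Trem2 and others named for the difference between diets were chosen after their values were seen. The members and lists were chosen with earlier results of these data known, and so were the 3 motifs, which were searched on both strands of the 250 bases before each RefSeq start. No library pair of a group agreed within sampling noise.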

Additional observations from a re-analysis of the deposited data

Results flagged for a closer look

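In 566 comparisons of the highest and lowest rat with the rest of its group, for 281 genes named above with their silica effect and for the Rnr1 and Rnr2 share and the library total, 45 values (7.95%) stood apart from the other 5 rats by more than Dixon's 95% limit. For normal and independent values the limit is passed in about 1 in 20. Genes of a rat are not independent, so the 7.95% cannot be judged against that rate. No explanation of them was tested.

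Among silica rats, rat 1 was the highest in 7 genes, 5 of them of heart muscle: Mb with 51.9 CPM, Myh7 with 46.8 CPM, Myl3 with 24.2 CPM, Ckm with 9.62 CPM and Ckmt2 with 8.35 CPM, beside Bmpr2 with 1419 CPM and Pdk4 with 15.4 CPM. It was the lowest for Mmp12, with 106 CPM. Silica rat 2, which had the smallest library, was the highest for Apoe with 952 CPM, Xbp1 with 255 CPM, C1qc with 46.1 CPM, Cxcl9 with 41.4 CPM, Icos with 26.3 CPM, Il2ra with 4.78 CPM, Ccl20 with 4.1 CPM, Cxcl11 with 3.42 CPM and Pck1 with 2.05 CPM, and the lowest for C6 with 34.9 CPM. Among its values are Cxcr3 ligands and T cell activation genes. Silica rat 3 was the highest for C7 with 639.8 CPM and the lowest for Rnr2 with 53830.0 CPM. Silica rat 4 was the highest for Trem2 with 64.6 CPM. Silica rat 5 was the highest for Cd177 with 44.1 CPM.

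Among air rats, rat 6 was the highest in 12 genes, 11 of them among the silica-induced genes: Cxcl6 with 4.58 CPM, Ccl22 with 0.873 CPM, Spp1 with 10.5 CPM, Retnla with 18.55 CPM, Mmp12 with 5.89 CPM, Lpo with 6.55 CPM, Slc26a4 with 14.2 CPM, Chia with 187 CPM, Chi3l1 with 131 CPM, Tmem72 with 0.436 CPM and Mmp7 with 0.436 CPM, beside Col6a1 with 267 CPM. In these 11 it lay between the other air rats and the silica rats. Air rat 1 was the highest for Klf9 with 174.5 CPM, Tyrobp with 72.8 CPM, Ppargc1a with 41.5 CPM and Trpm5 with 24.2 CPM. Air rat 3 was the highest for Postn with 513 CPM and the lowest for Mt1a with 0.799 CPM. Air rat 4 was the highest for Gpnmb with 352 CPM, Myl3 with 157 CPM, Trem2 with 25.4 CPM, Ccl24 with 3.34 CPM and Atp6v0d2 with 3.05 CPM.

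The tests of a difference between silica effects flagged 38 values. On the high-fat diet the log2 effect exceeded that on the regular diet by 1.81 for Atp6v0d2, 0.69 for C3, 0.48 for Capn5, 0.64 for Ctsd, 1.12 for Ctsk, 1.06 for Cxcr1, 0.36 for Fads1, 0.48 for Fads2, 0.40 for Flvcr2, 0.90 for Gpnmb, 0.96 for Hk3, 1.43 for Lcn2, 0.93 for Lgals3, 2.63 for Mmp12, 0.88 for Naaa, 0.45 for Scd, 0.60 for Srebf1 and 1.07 for Trem2. The difference was -0.35 for Hnrnpa3, -0.65 for Khdrbs1, -0.52 for Rcsd1, -0.51 for Tardbp, -1.95 for Zbtb16 and -0.88 for Zfp366. Between 9 and 3 months it was 1.85 for C4b, 3.12 for Chia, 1.27 for Col16a1, 3.49 for Esr1, 1.45 for Ncf1, 3.25 for Retnla, 3.67 for Spp1, 0.89 for Tmtc1, -1.08 for Adamts17, -0.64 for Aoc3, -0.58 for Col3a1, -0.75 for Ltbp1, -0.88 for Mamdc2 and -0.86 for Slc7a10.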

How the results depend on the processing

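The number of genes called between silica and air stayed within 1.5 times of 7875 under each alternative: 7854 with DESeq2-type size factors, 7791 without a filter on low counts, 7533 in DESeq2, 8311 in limma voom, 7815 with edgeR's legacy setting, 7959 in a fit of the high-fat groups alone, 7854 without Rnr1 and Rnr2, 6710 with their share as a covariate, 7641 without silica rat 1 and air rat 6 (chosen after seeing the data), and 7191 to 7843 without 1 rat. The share of calls that were higher ran from 46.6% without Rnr1 and Rnr2, where the median of all genes moved to -0.0304, to 52.8% without silica rat 6. The difference between diets depended more on the setting: 348 genes (198 higher, 150 lower) in DESeq2, 273 (148 and 125) in voom, 159 with DESeq2-type size factors, 123 without a filter, 165 with the legacy setting, 116 with the covariate, and 72 to 274 without 1 rat. The cause was not tested. The difference between times gave 1268 to 2401 genes under the other settings and 1115 to 1908 without 1 rat. The Rnr1 and Rnr2 share differed by 1.13 to 1.64 percentage points without 1 rat, by 0.638 for Rnr1 alone (exact permutation p = 0.00649) and by 0.81 for Rnr2 alone (exact permutation p = 0.00216).

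No named gene that was called changed direction in any alternative. Changes of sign were limited to genes that had not passed the test: with the covariate Rnr1 came to -0.61, Rnr2 to -0.21, Ccl20 to 0.58 and Ccl5 to -0.0174. Ccl5 was also at -0.0133 without Rnr1 and Rnr2 in the library size, Ccl20 at 0.0071 in DESeq2 and 0.13 in voom, and Col8a1 at 0.0189 in voom. Without 1 rat, Ccl5 ran from -0.01475 to 0.0439, Ccl20 from -0.41 to 0.51, Col8a1 from -0.11 to 0.0583 and Lpl from -0.0395 to 0.0353. In a fit of the high-fat groups alone Rnr1 (0.53, adjusted p = 0.00756), Rnr2 (0.32, adjusted p = 0.00759), Fn1 and Errfi1 passed the test. Mb, Myl3, Ckm, Myh7 and Ckmt2 did not pass it in voom, and 11 of 281 named genes did not with the covariate, among them Ahsp, Epb42, Hba2 and Pck1.

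No paired analysis was possible because the rat numbers of the silica and air groups are not shared in the labels. Depth of 3078216 to 8319382 counts limits genes of a few CPM, and a smaller effect there was not detectable.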

Other observations

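Of the ribosomal RNA genes other than Rnr1 and Rnr2 that the table lists by symbol (Rn18s, Rn28s, Rn45s, Rn5-8s and Rn5s), all had 0 counts in the 12 rats. Several genes of interest for silica lungs had 0 counts in all 12 rats as well and were not tested: Col1a2, Col15a1, Mfap4, Cd79a, Ltb, RT1-DMa, Tff2 and Mmp3. Nothing is read from these zeros.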
